A study of Mus musculus with 10 samples.

Results

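A set of 10 genes that mark the muscle cells of vessel walls was followed in regenerating mouse muscle: *Fhl5*, the smooth muscle genes *Acta2*, *Tagln*, *Myh11*, *Cnn1* and *Myocd*, and the pericyte genes *Rgs5*, *Pdgfrb*, *Cspg4* and *Kcnj8*. The set was built around *Fhl5*, which was chosen by its measured values in this comparison, as one of the genes that were lower in the knockout with a small p. The other members were added as known markers of the same cells. Of 25700 genes counted, these are 10, and 9 of them passed the filter on low counts. *Myocd*, with 1 to 11 reads per mouse, did not pass and was not tested.

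RNA of the tibialis anterior (TA) muscle was sequenced from 5 Pax7Cre and 5 miR-501KO mice. All 10 were male C57BL/6 mice aged 12 weeks, and the muscle was taken on day 6 after an injection of cardiotoxin (CTX), a snake venom toxin that destroys muscle fibers and sets off their regeneration. The study asked how the loss of miR-501, a microRNA found in dividing muscle progenitors, alters the regenerating muscle. Pax7Cre mice carry a Cre recombinase driven by the *Pax7* promoter and are labelled as wild type. The miR-501KO mice are labelled miR-501 -/-. By the study's methods this knockout was made by deleting a floxed miR-501 precursor with the same Pax7Cre allele, so both genotypes carry the recombinase. *Pax7* is the defining gene of muscle stem cells, and vessel wall cells are not the cells in which this promoter is used to delete genes. No row for the miRNA was used, so the counts give no check of its deletion.

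Smooth muscle cells wrap arteries and veins, and pericytes wrap capillaries. Both are called mural cells. Their contractile genes are switched on by serum response factor (SRF), which binds a short DNA element called the CArG box and recruits the cofactor myocardin. Pericytes are drawn to new vessels by the growth factor PDGF-B from endothelial cells, which acts on the receptor encoded by *Pdgfrb*. After injury, vessels of skeletal muscle are rebuilt together with the fibers. *Acta2* and *Tagln* are also switched on outside the vessel wall, in activated fibroblasts and in differentiating muscle cells, so neither is a marker of smooth muscle alone. FHL5, also called ACT, is a protein of LIM domains that acts as a coactivator of the transcription factors CREM and CREB.

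The miRNA that was deleted is shown because a match to its seed is the usual way to look for direct targets. Mature miR-501-3p lies at chrX:7241270-7241291 on the minus strand of GRCm38.p6. Its sequence in RefSeq follows, with the seed, bases 2 to 8, in capitals.
mmu-miR-501-3p: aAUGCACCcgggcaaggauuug
The seed is shared by 2 of 1738 mature mouse miRNAs, miR-501-3p and miR-500-3p. Its complement, GGTGCAT, was not found on the sense strand of any annotated 3′ untranslated region (3′UTR) of the 10 members. The longest annotated 3′UTR of *Fhl5* has 70 bases, against 517 to 3473 for the other members, so the search of *Fhl5* covered little sequence. Of 13989 tested genes with an annotated 3′UTR, 7.52% held it. The shorter match GTGCAT, which lies within the longer one, was found in 4 of the 10 members, *Acta2*, *Cnn1*, *Myocd* and *Rgs5*, and in 31.1% of the tested genes. The match begins at base 545 of the 577 bases of the *Acta2* 3′UTR, at base 897 of 1399 in *Cnn1* and at base 758 of 1884 in *Myocd*. The 28 bases around each are given with the match in capitals.
Acta2: agcatacacacGTGCATggatatgcatg
Cnn1: tcccagattgtGTGCATgcggtgtgcac
Myocd: tccacctctatGTGCATcagcaatgcat
The match in *Rgs5* lies in a shorter annotated 3′UTR and not in the longest one. A match describes the letters only and does not show a site.

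Between 18609222 and 24753258 reads were counted per mouse, and values are given as CPM, counts scaled to library size with TMM factors. Pax7Cre mice 2 and 4 stood apart from the other libraries. On the first principal component, which held 33.0% of the variance, they lay at 43.9 and -27.5, and the other 8 mice lay between -8.97 and 16.9. They also bracketed the scores for mature fibers and for myogenic cells, which are described with the relations between mice. Genes of skeletal muscle were high, such as *Ckm* (creatine kinase) at 6538 CPM and *Actc1* (fetal actin of regenerating fibers) at 3167 CPM on average over the 10 mice. These mark muscle and do not tell TA from other muscles.

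The smooth muscle and pericyte genes were all detected, at levels that spanned a wide range. To compare genes with each other, CPM was divided by the annotated exon length in kilobases (kb). On this scale *Acta2*, the actin of smooth muscle, was the highest at 292 ± 61.0 CPM per kb (SD, n = 10 mice). *Rgs5*, a regulator of G protein signalling in pericytes, followed at 81.9 ± 12.0. *Tagln*, the actin-binding protein transgelin, reached 58.0 ± 9.47, and *Pdgfrb* 25.8 ± 2.62. A middle group held *Myh11*, the smooth muscle myosin heavy chain, at 5.66 ± 1.18, *Kcnj8*, a potassium channel subunit, at 5.34 ± 1.13 and *Cspg4*, the proteoglycan NG2, at 4.09 ± 0.631 CPM per kb. *Cnn1*, the actin-binding protein calponin, was lower at 1.42 ± 0.205. *Fhl5* stood at 0.732 ± 0.210 and *Myocd*, which encodes myocardin, at 0.0503 ± 0.0228 CPM per kb.

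In 6 of the 9 pairs of neighbours in this order, the higher gene was higher in all 10 mice. For these the exact two-sided permutation test on paired values gave p = 0.00195, the smallest p it can give (0.00293 after Benjamini-Hochberg adjustment over 9 pairs). *Rgs5* exceeded *Tagln* in 9 of 10 mice (exact p = 0.00781, adjusted 0.0100). *Kcnj8* exceeded *Cspg4* in 8 of 10 (exact p = 0.0273, adjusted 0.0308). *Myh11* and *Kcnj8* were not told apart, with *Myh11* higher in 7 of 10 mice (exact p = 0.168). Exon length was that of all annotated exons of a gene, so a gene that uses short transcripts in muscle is placed too low. *Tagln* shares exon sequence with *Pcsk7* on the opposite strand, and the strand setting of the counting is not given in the sources used here, so reads of this overlap cannot be told apart.

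*Fhl5* was the gene that set the choice, and its difference between the genotypes is therefore a description with no test. It lies at chr4:25199908-25242876 on the minus strand (GRCm38). *Fhl5* stood at 0.985, 1.00, 1.11, 0.883 and 1.27 CPM in Pax7Cre mice 1 to 5. It stood at 0.640, 0.425, 0.750, 0.742 and 0.763 CPM in miR-501KO mice 1 to 5. Every miR-501KO mouse lay below every Pax7Cre mouse, and the lowest value was that of miR-501KO mouse 2. The means were 1.05 ± 0.148 and 0.664 ± 0.142 CPM (SD, n = 5 each). The log2 fold change was -0.65 (SE 0.217). Complete separation of this kind was seen in 11 of 14410 genes, 0.0763%, and *Fhl5* was 9th by p among the 7504 genes that were lower in miR-501KO mice and 37th by size of the log2 fold change. Its edgeR quasi-likelihood p was 0.0106 before adjustment, the value that led to its choice, and 1.00 after Benjamini-Hochberg adjustment over all genes.

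These values rest on few reads. *Fhl5* had 22, 19, 21, 22 and 26 reads in the Pax7Cre mice and 16, 9, 18, 14 and 18 reads in the miR-501KO mice. The sums were 110 reads (exact 95% Poisson interval 90.4 to 133) and 75 reads (59.0 to 94.0), intervals that cover counting error only. Counting alone gives a coefficient of variation of 21.3% and 25.8% at these means, and the observed ones were 14.1% and 21.4%. The spread of *Fhl5* between mice of one genotype was thus no wider than that of counting. The p by which *Fhl5* was chosen is smaller when this spread is narrow, so nothing further is read from it. In bulk muscle, fewer cells of a type and less RNA per cell cannot be told apart.

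**Figure D1:**
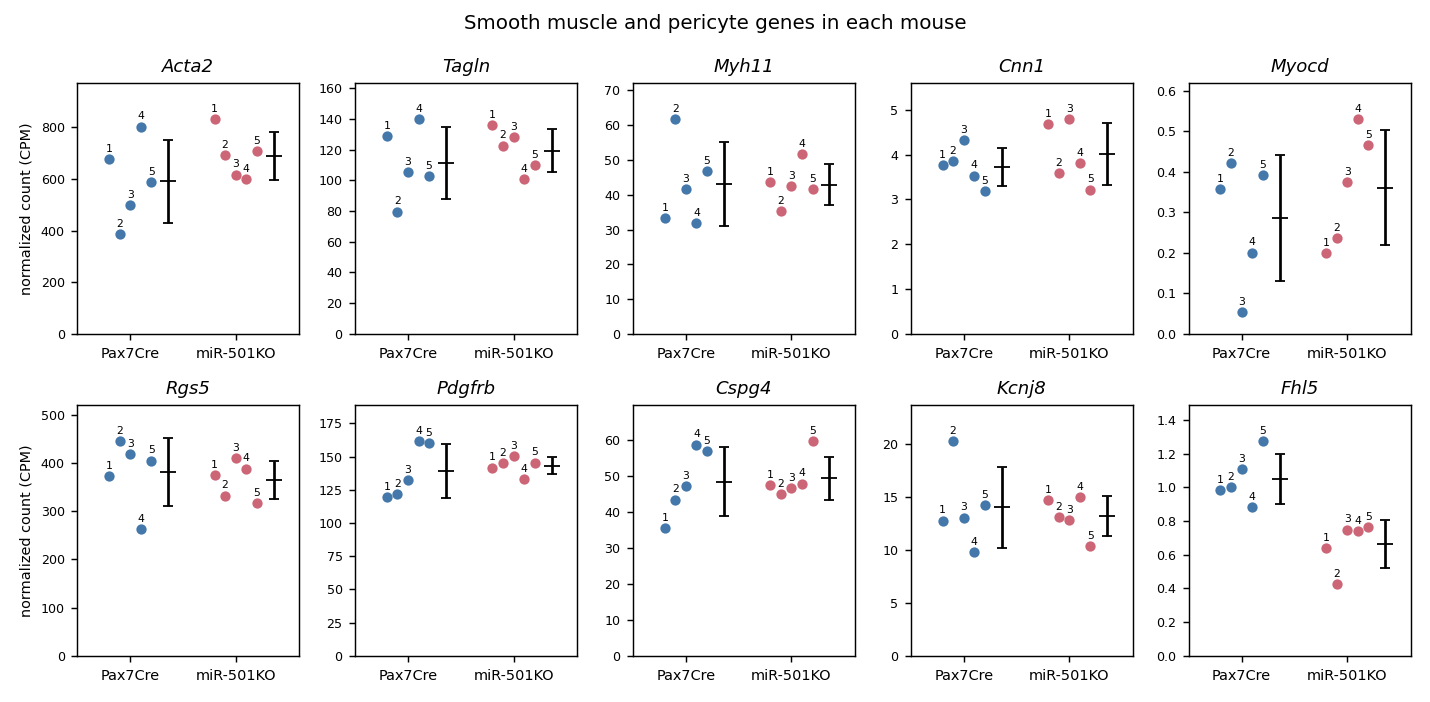
Normalized count (CPM, linear axes from 0) of each member in each mouse. Points are mice, numbered as in the labels, and the bar beside each genotype is the mean ± SD (n = 5). The genotypes overlap for all members but *Fhl5*, whose miR-501KO mice lie between 0.425 and 0.763 CPM and whose Pax7Cre mice lie between 0.883 and 1.27 CPM.

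For the other 8 members tested, the genotypes overlapped. Separation in the other direction, with every miR-501KO mouse above every Pax7Cre mouse, was seen in 0 members and in 0.0625% of all genes. Over all 14410 genes, edgeR's quasi-likelihood test called 0 (0% of the genes) at an adjusted p under 0.05, and so 0 of the 9 members, and DESeq2's Wald test also called 0. At an unadjusted p under 0.05, 0.666% of all genes were lower and 0.382% were higher. *Fhl5* is among the lower genes because it was chosen for that p, so nothing is read from its call, and 0 of the other 8 members tested were called in either direction. The log2 fold changes of the 9 members were below 0 in 4 and above 0 in 5, with a median of 0.028, and the median over all genes was -0.0042.

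Among the smooth muscle genes, *Acta2* (chr19:34241090-34255590, minus strand) stood at 679, 387, 499, 804 and 589 CPM in Pax7Cre mice 1 to 5 and at 831, 693, 617, 598 and 709 CPM in miR-501KO mice 1 to 5. All 5 miR-501KO mice lay above the Pax7Cre median, but 4 of them lay within the Pax7Cre range. The log2 fold change was 0.22 (SE 0.175, unadjusted p = 0.227 and adjusted p = 1.00 in edgeR's test). Without Pax7Cre mouse 4 it was 0.36 with an unadjusted p of 0.0425 and an adjusted p again near 1, and without Pax7Cre mouse 2 it was 0.10.

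*Tagln* (chr9:45929619-45936058, minus strand) ran alongside *Acta2*, at 129, 79.6, 105, 140 and 103 CPM in the Pax7Cre mice and 136, 123, 128, 101 and 110 CPM in the miR-501KO mice. Pax7Cre mouse 2 was the lowest and Pax7Cre mouse 4 the highest for *Tagln*, and the miR-501KO mice lay between them. *Tagln* had a log2 fold change of 0.10 (SE 0.139), which was 0.0016 without Pax7Cre mouse 2 and 0.20 without Pax7Cre mouse 4.

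*Myh11* (chr16:14194535-14291372, minus strand) had its highest value where *Acta2* and *Tagln* had their lowest. It stood at 33.3, 61.7, 41.7, 31.9 and 46.8 CPM in the Pax7Cre mice and at 43.7, 35.3, 42.5, 51.6 and 41.6 CPM in the miR-501KO mice, and the genotypes overlapped throughout. The log2 fold change of *Myh11* was -0.0033 (SE 0.164). Without Pax7Cre mouse 2 it was 0.16, and without Pax7Cre mouse 4 it was -0.095.

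*Cnn1* (chr9:22099216-22109630, plus strand) was low in every mouse, at 3.76, 3.85, 4.33, 3.53 and 3.18 CPM in Pax7Cre mice and 4.68, 3.59, 4.79, 3.81 and 3.22 CPM in miR-501KO mice. Here miR-501KO mice 1 and 3 lay above all Pax7Cre mice and the other 3 did not, and the log2 fold change was 0.11 (SE 0.148). It was 0.039 without miR-501KO mouse 3 and 0.18 without miR-501KO mouse 5. *Myocd* (chr11:65176561-65269989, minus strand) stood between 0.0528 and 0.422 CPM in Pax7Cre mice and between 0.200 and 0.530 CPM in miR-501KO mice. With sums of 30 and 40 reads per genotype, a difference in *Myocd* could not have been seen at this depth unless it was large.

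Among the pericyte genes, *Rgs5* (chr1:169655501-169695813, plus strand) stood at 372, 445, 418, 263 and 405 CPM in Pax7Cre mice and at 375, 332, 410, 388 and 316 CPM in miR-501KO mice. Pax7Cre mouse 4 was the lowest of all 10 and the miR-501KO mice lay within the Pax7Cre range. The log2 fold change of *Rgs5* was -0.063 (SE 0.136), which was -0.0031 without Pax7Cre mouse 2 and -0.17 without Pax7Cre mouse 4.

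*Pdgfrb* (chr18:61045150-61085061, plus strand) had the smallest ratio of highest to lowest value over the 10 mice, 1.35, with 120, 122, 132, 162 and 160 CPM in Pax7Cre mice and 142, 145, 150, 133 and 145 CPM in miR-501KO mice. The miR-501KO values again fell inside the Pax7Cre range, with a log2 fold change of 0.039 (SE 0.0975). For *Pdgfrb* it turned to -0.00997 without Pax7Cre mouse 1 and to -0.0061 without Pax7Cre mouse 2, and it was 0.099 without Pax7Cre mouse 4. *Cspg4* (chr9:56865033-56899870, plus strand) stood at 35.5, 43.5, 47.3, 58.7 and 56.9 CPM in Pax7Cre mice and at 47.4, 45.0, 46.6, 47.9 and 59.7 CPM in miR-501KO mice. Apart from miR-501KO mouse 5, which lay above all others for *Cspg4*, the miR-501KO mice lay close together, and the log2 fold change was 0.028 (SE 0.131). It turned to -0.050 without miR-501KO mouse 5, to -0.065 without Pax7Cre mouse 1 and to -0.0098 without Pax7Cre mouse 2, and it was 0.11 without Pax7Cre mouse 4.

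*Kcnj8* (chr6:142564837-142571614, minus strand) forms with the product of *Abcc9* the ATP-sensitive potassium channel of mural cells. It stood at 12.8, 20.3, 13.0, 9.83 and 14.2 CPM in Pax7Cre mice and at 14.7, 13.1, 12.8, 14.99 and 10.3 CPM in miR-501KO mice. As with *Myh11*, Pax7Cre mouse 2 was the highest and Pax7Cre mouse 4 the lowest for *Kcnj8*. The log2 fold change was -0.085 (SE 0.168), and it was 0.081 without Pax7Cre mouse 2.

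For 8 members other than *Fhl5*, the standard error leaves room for differences of modest size in either direction, so these values do not show that the genotypes were alike. The spread between mice was wider in Pax7Cre than in miR-501KO mice for 7 of 9 members on the log2 scale. The same held for 114 of the 135 listed genes (84.4%), which include the marker lists of other cells. Without Pax7Cre mice 2 and 4 the counts were 5 of 9 members and 85 of 135 genes.

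Wider sets of mural genes also gave no adjusted call. Of 15 further smooth muscle contractile genes, 7 had a log2 fold change below 0 and 8 above 0, with a median of 0.015, and 0 passed the adjusted test. The most abundant were *Synpo2* (an actin-bundling protein of muscle) at 344 CPM and *Cald1* (caldesmon) at 214 CPM. *Susd5* was the single gene with an unadjusted p under 0.05. It stood at 2.96, 3.80, 2.64, 3.53 and 4.11 CPM in Pax7Cre mice and at 4.84, 4.06, 4.04, 4.29 and 4.87 CPM in miR-501KO mice. Pax7Cre mouse 5 overlapped the miR-501KO range, and the log2 fold change of *Susd5* was 0.38 (SE 0.146, unadjusted p = 0.0231 and adjusted p = 1.00 in edgeR's test). The unadjusted p of *Susd5* was 0.0552 without Pax7Cre mouse 1, 0.0560 without miR-501KO mouse 1 and 0.0570 without miR-501KO mouse 5.

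Of 21 further pericyte genes, 13 lay below 0 and 8 above 0, with a median log2 fold change of -0.035, and 0 passed with or without adjustment. *Mcam*, a cell adhesion molecule of vessel walls, was at 139 CPM, and *Notch3*, the Notch receptor of mural cells, was at 125 CPM. *Abcc9*, the partner of *Kcnj8*, was at 121 CPM with a log2 fold change of -0.092. Of 16 ligands and receptors that recruit mural cells, 11 lay below 0 and 5 above 0, with a median of -0.032. *Tgfbr2* and *Eng*, receptors of the TGF-beta pathway, were the most abundant at 197 and 127 CPM. *Jag1*, a Notch ligand, had an unadjusted p under 0.05. It ranged from 19.2 to 21.9 CPM in Pax7Cre mice and from 21.1 to 24.0 CPM in miR-501KO mice, ranges that overlap, with a log2 fold change of 0.15 (SE 0.069, unadjusted p = 0.0462 and adjusted p = 1.00 in edgeR's test). The unadjusted p of *Jag1* was 0.0670 with no filter, 0.0508 with at least 10 counts in every mouse, 0.0549 in DESeq2's Wald test and 0.0732 with the replicate block, and it reached 0.120 without miR-501KO mouse 4.

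Of 14 genes that act with SRF or belong with *Fhl5* as CREM partners or FHL relatives, 2 lay below 0 and 12 above 0, with a median of 0.047, and 0 passed with or without adjustment. The relative *Fhl1*, a skeletal muscle protein, was at 1561 CPM, and *Mef2c*, a muscle transcription factor, was at 419 CPM. *Crem* itself stood at 13.5 ± 2.44 CPM in Pax7Cre and 13.97 ± 1.31 CPM in miR-501KO mice (SD, n = 5 each). *Fhl2* had a log2 fold change of 0.26, *Fhl3* of 0.081 and *Fhl4* of 0.11.

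**Figure D2:**
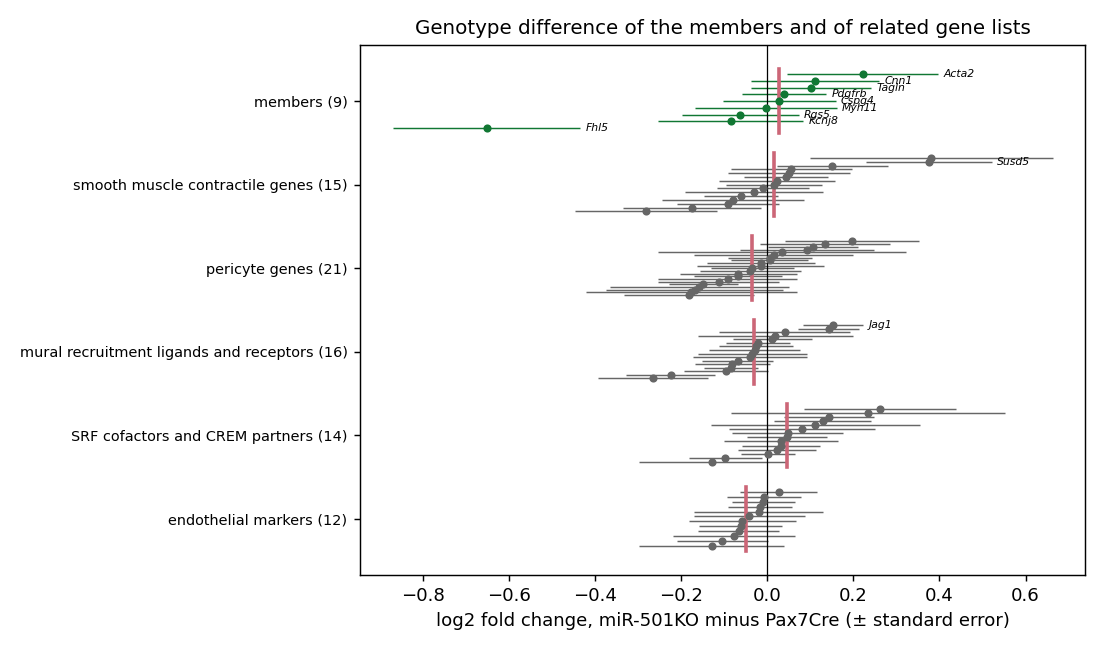
Log2 fold change (miR-501KO minus Pax7Cre, points, with the standard error as bars) of the 9 members tested and of 5 related gene lists, with the number of genes tested in parentheses and the median of each list as a red line. *Fhl5* stands alone at -0.65, the other members lie between -0.085 and 0.22, and the medians of the lists lie between -0.050 and 0.047.

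The promoters of the members were searched for the CArG box because it is the element by which SRF acts on smooth muscle genes. RefSeq-based windows of 300 bases, from 250 before to 50 after a start site, were searched for 6 members, *Fhl5* (2 windows), *Acta2*, *Cnn1*, *Rgs5*, *Cspg4* and *Kcnj8*, in GRCm38.p6. No window was searched for *Myh11*, *Tagln*, *Myocd* and *Pdgfrb*. The strict CArG box was in 0 of the 7 windows and in 1.63% of 32851 windows of all genes. With 1 C or G allowed among its inner 6 bases, a rule chosen after the *Acta2* window had been read, it was in 9.98% of all windows and in 2 of the 7, with 2 copies in *Acta2* and 1 in the second *Fhl5* window. The pattern reads the same on both strands, so 1 search covers both. Those copies are printed with 10 bases on either side and the element in capitals. The *Acta2* copies begin 84 and 34 bases before the start site, and the 30 bases printed for them lie at chr19:34255438-34255467 and chr19:34255388-34255417 on the minus strand, and the *Fhl5* copy begins 159 bases before its start site, with its 30 printed bases at chr4:25242406-25242435 on the minus strand.
Acta2, first copy: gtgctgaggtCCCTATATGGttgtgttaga
Acta2, second copy: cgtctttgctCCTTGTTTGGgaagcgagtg
Fhl5: agtcaaatttCCCTTTAAGGatattctgaa
The copies describe letters and not binding, and no binding was measured here.

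The members were also compared across mice after the mean of each genotype had been subtracted from log2 CPM. This asks which members rose and fell together within genotypes, and it does not use the difference between the genotype means. The p that chose *Fhl5* also drew on its spread within genotypes, which was no wider than that of counting. The p values for relations of *Fhl5* are therefore given as a description only. Of 36 pairs, 0 passed an exact permutation test of Pearson's r after Benjamini-Hochberg adjustment, and 8 had an unadjusted p under 0.05. The test enumerated all 14400 arrangements of mice within genotypes.

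The pairs with the smallest p of Pearson's r were *Acta2* with *Tagln* and *Myh11* with *Tagln*. *Acta2* and *Tagln* varied together, with r = 0.89 and Spearman's rho = 0.75 over 10 mice (exact permutation p = 0.0051 and 0.0380, adjusted 0.119 and 0.274). *Myh11* went the other way from *Tagln*, with r = -0.88 and rho = -0.75 (exact permutation p = 0.0066 and 0.0352, adjusted 0.119 and 0.274). Without Pax7Cre mice 2 and 4, which lay farthest from the median, these values were 0.68 and -0.68 (exact permutation p = 0.107 and 0.108), so both relations rest in part on those 2 mice. Among the pericyte genes, *Rgs5* and *Kcnj8* had r = 0.80 and rho = 0.64 (exact permutation p = 0.0255 and 0.0688, adjusted 0.159 and 0.354), and *Pdgfrb* and *Cspg4* had r = 0.80 and rho = 0.71 (exact permutation p = 0.0269 and 0.0823, adjusted 0.159 and 0.370). Without Pax7Cre mice 2 and 4, r was 0.64 for *Rgs5* and *Kcnj8* and 0.75 for *Pdgfrb* and *Cspg4*. Without Pax7Cre mouse 4 and miR-501KO mouse 5, the farthest for *Rgs5*, r of *Rgs5* and *Kcnj8* was 0.51. Without Pax7Cre mice 4 and 5, the farthest for *Pdgfrb*, r of *Pdgfrb* and *Cspg4* was 0.41. Within genotypes, r of *Pdgfrb* and *Cspg4* was 0.94 in Pax7Cre and 0.089 in miR-501KO mice, and r of *Rgs5* and *Kcnj8* was 0.84 and 0.66. The remaining pairs of pericyte genes had r below 0 (adjusted exact permutation p = 0.539 for each). *Rgs5* had -0.50 with *Pdgfrb* and -0.47 with *Cspg4*, and *Kcnj8* had -0.55 and -0.46 with them. Without Pax7Cre mice 2 and 4 these were 0.14, -0.063, 0.0039 and -0.23. The pair with the smallest p of Spearman's rho was *Myh11*, a smooth muscle gene, with *Kcnj8*, at rho = 0.89 and r = 0.82 (exact permutation p = 0.0021 and 0.0133, adjusted 0.0750 and 0.159). *Myh11* had r = 0.73 with *Rgs5*. Without Pax7Cre mice 2 and 4, r of *Myh11* was 0.46 with *Kcnj8* and 0.59 with *Rgs5*.

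**Figure D3:**
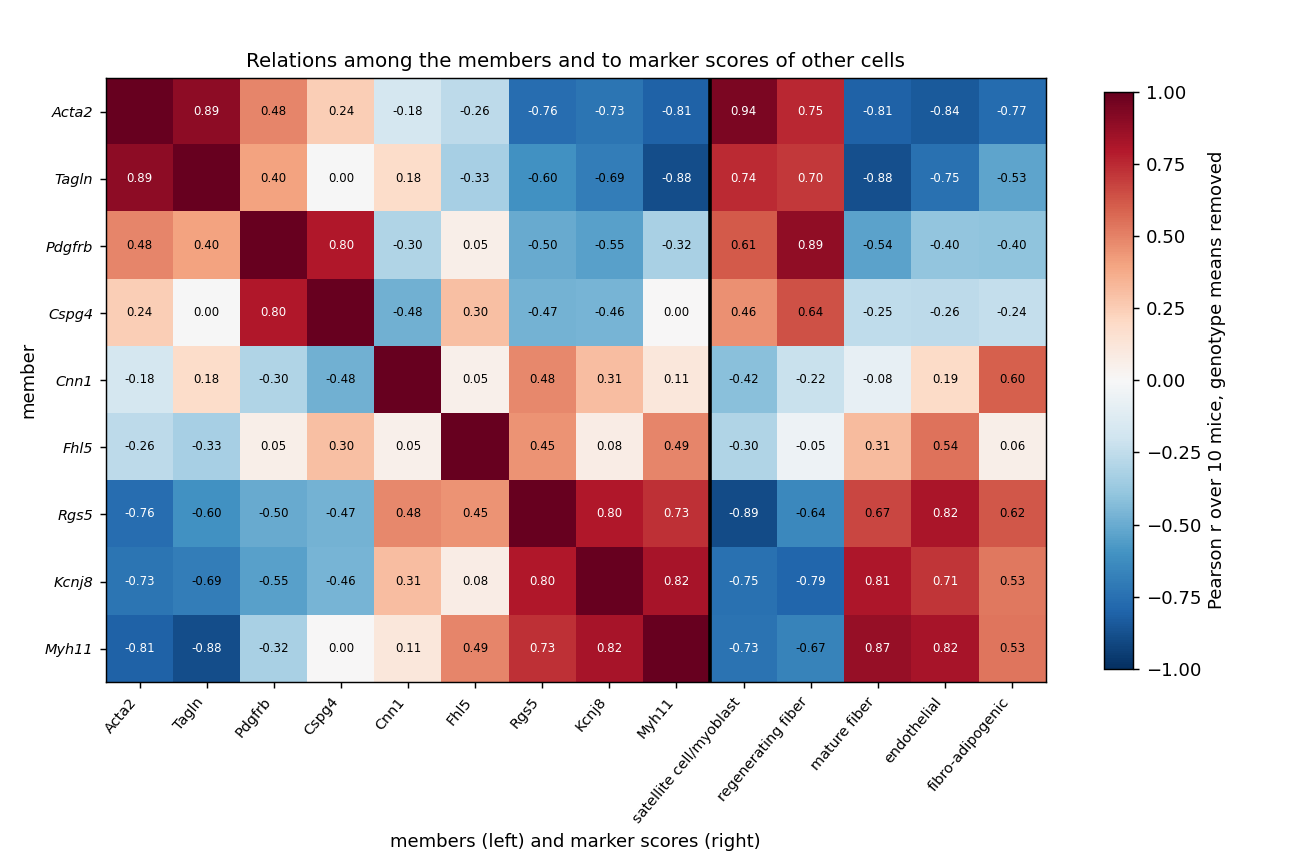
Pearson r of log2 CPM over 10 mice with genotype means removed, between members (left of the line) and between each member and the score of 5 marker lists of other cells (right of the line), on a color scale from -1 to 1. *Acta2*, *Tagln*, *Pdgfrb* and *Cspg4* share positive values with the myogenic scores. *Rgs5*, *Kcnj8*, *Myh11* and *Fhl5* share positive values with the endothelial and mature fiber scores. No value passes its adjusted test, and without Pax7Cre mice 2 and 4 several fall near 0, such as *Kcnj8* with the mature fiber score (0.12) and *Tagln* with the regenerating fiber score (0.084).

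*Fhl5* passed the adjusted test with no other member. Its r ran from -0.33 with *Tagln* to 0.49 with *Myh11*, where the exact permutation p was 0.102 (adjusted 0.335). These values depended on single mice. Without Pax7Cre mouse 4 and miR-501KO mouse 2, the farthest for *Fhl5*, r was 0.80 with *Pdgfrb* and 0.79 with *Cspg4* (exact permutation p = 0.0347 and 0.0486, unadjusted), from 0.055 and 0.30 over all 10 mice, and it was 0.080 with *Myh11*. Without Pax7Cre mouse 2, r of *Fhl5* and *Myh11* was 0.80. The genes whose pattern over the 10 mice was most like that of *Fhl5* were *Gm20517* (r = 0.95), *Pomgnt2* (0.93), *Rock2* (0.91), *Rec8* (0.91) and *Fbxw11* (0.90), of 14409 genes compared. None of these is a mural marker of the lists used, and with 9 to 26 reads of *Fhl5* per mouse the likeness is given as a description only. Among its values with the 5 marker scores, the largest was that with the endothelial score, r = 0.54 and rho = 0.58 (exact permutation p = 0.0953 and 0.108, adjusted 0.195 and 0.303).

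Bulk muscle holds other cells, so the members were also set against marker scores, the mean log2 CPM of fixed lists for endothelial cells, fibro-adipogenic progenitors, satellite cells and myoblasts, regenerating fibers and mature fibers. Of 45 relations, 0 passed the exact permutation test after adjustment over 45, and 15 had an unadjusted p under 0.05. *Acta2* followed the score of satellite cells and myoblasts, with r = 0.94 and rho = 0.92 (exact permutation p = 0.0023 and 0.0020, adjusted 0.0516 and 0.0594), and r was 0.84 without Pax7Cre mice 2 and 4. It was 0.96 within Pax7Cre mice and 0.83 within miR-501KO mice. *Rgs5* ran against the same score, with r = -0.89 and rho = -0.82 (exact permutation p = 0.0012 and 0.0101, adjusted 0.0516 and 0.151), and -0.70 without these mice.

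*Pdgfrb* followed the score of regenerating fibers, with r = 0.89 and rho = 0.94 (exact permutation p = 0.0043 and 0.0026, adjusted 0.0598 and 0.0594), and r was 0.88 without Pax7Cre mice 2 and 4. This value hardly moved without those mice. *Myh11* followed the score of mature fibers, with r = 0.87 and rho = 0.78 (exact permutation p = 0.0076 and 0.0274, adjusted 0.0598 and 0.154), while *Tagln* ran against it, with r = -0.88 and rho = -0.78 (exact permutation p = 0.0058 and 0.0236, adjusted 0.0598 and 0.154). Both were weaker without Pax7Cre mice 2 and 4, at 0.59 and -0.61. *Rgs5* and *Myh11* each had r = 0.82 with the endothelial score, and *Acta2* had -0.84 with it. Without Pax7Cre mice 2 and 4 these were 0.65, 0.57 and -0.55. *Acta2* had r = -0.77 with the fibro-adipogenic score, and -0.64 without these mice. Other values were lost without these mice. *Kcnj8* went from 0.71 to 0.14 with the endothelial score and from 0.81 to 0.12 with the mature fiber score, and within miR-501KO mice it had 0.070 and 0.025. *Rgs5* went from 0.67 to 0.094 with the mature fiber score. *Acta2* went from 0.75 to 0.17 with the regenerating fiber score and from -0.81 to -0.23 with the mature fiber score. *Tagln* went from 0.74 to 0.23 with the satellite cell and myoblast score and from 0.70 to 0.084 with the regenerating fiber score. *Cnn1* had its largest value with the fibro-adipogenic score, r = 0.60 and rho = 0.61 (exact permutation p = 0.0101 and 0.0252, adjusted 0.0598 and 0.154). This value was not lost, with r = 0.64 without Pax7Cre mice 2 and 4. It was 0.78 within Pax7Cre mice and 0.82 within miR-501KO mice.

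These relations were close to the threshold, and leaving out 1 mouse moved some of them across it. Without Pax7Cre mouse 1, 5 relations passed the adjusted test, namely *Acta2* and *Rgs5* with the satellite cell and myoblast score, *Pdgfrb* with regenerating fibers, *Tagln* with mature fibers and *Cnn1* with fibro-adipogenic progenitors. Without miR-501KO mouse 3, 5 passed, with *Myh11* and *Tagln* to the endothelial score in place of the last 2. Without miR-501KO mouse 1, *Rgs5* alone passed.

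**Figure D4:**
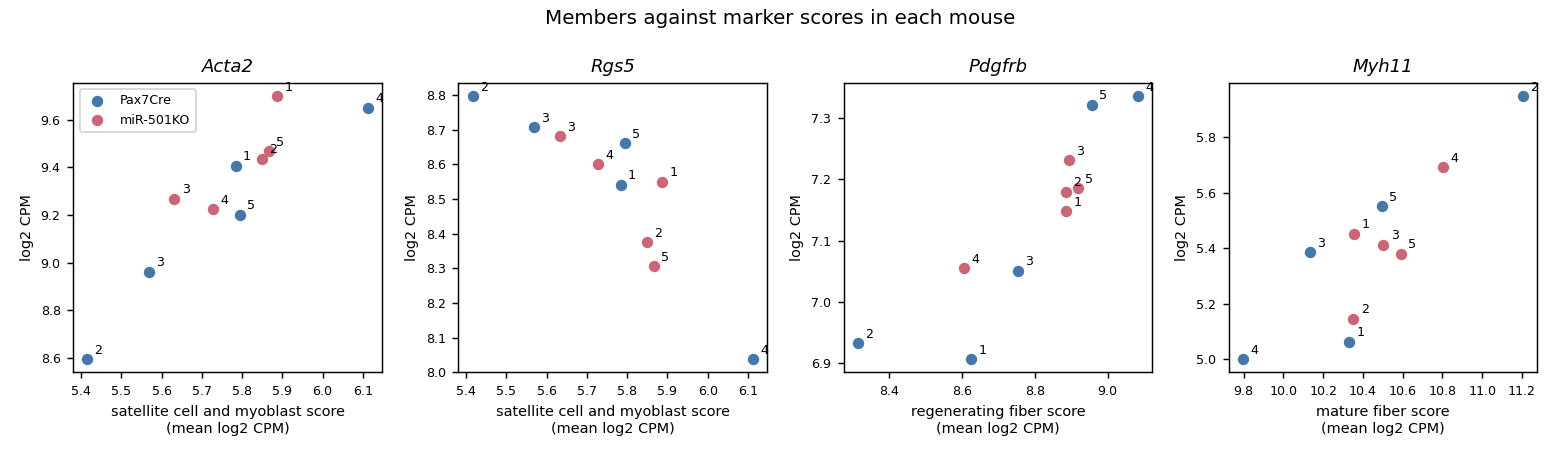
Log2 CPM of *Acta2*, *Rgs5*, *Pdgfrb* and *Myh11* (vertical axes) against the mean log2 CPM of a marker list (horizontal axes) in each of the 10 mice, numbered as in the labels. Pax7Cre mice 2 and 4 lie at the ends of each horizontal axis. *Acta2* and *Rgs5* slope in opposite directions against the same score.

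The scores themselves differed widely between mice. The score of mature fibers was 11.2 in Pax7Cre mouse 2 and 9.80 in Pax7Cre mouse 4 (mean log2 CPM), and between 10.1 and 10.8 in the other 8 mice. The score of satellite cells and myoblasts had the opposite order, at 5.42 in Pax7Cre mouse 2 and 6.11 in Pax7Cre mouse 4. The members with the lowest values in Pax7Cre mouse 2, *Acta2* and *Tagln*, were thus low where mature fiber markers were highest, and *Myh11*, *Kcnj8* and *Rgs5* were highest there.

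Between the genotypes, the markers of other cells gave no adjusted call. Of all 14410 genes tested, 7504 had a log2 fold change below 0. The list with the most uneven split was that of endothelial markers, where 11 of 12 lay below 0 with a median log2 fold change of -0.050. Their summed level was 888 to 1196 CPM in Pax7Cre and 909 to 1127 CPM in miR-501KO mice. The split of signs within a list was not tested. Of 11 fibro-adipogenic markers 8 lay below 0 (summed 18429 to 25904 and 20511 to 24549 CPM). Of 7 markers of satellite cells and myoblasts 1 lay below 0 (414 to 737 and 528 to 612 CPM), and of 8 macrophage markers 4 did (3928 to 5470 and 4176 to 4843 CPM). Of 6 regenerating fiber markers 2 lay below 0 (5006 to 7324 and 4796 to 7335 CPM), and of 10 mature fiber markers 2 did (14794 to 38580 and 21981 to 28756 CPM). The most abundant of these markers were *Cdh5* (232 CPM) and *Pecam1* (217 CPM) of endothelial cells, *Col3a1* (7821 CPM) and *Col1a1* (7274 CPM) of fibro-adipogenic progenitors, *Myog* (229 CPM) and *Mymk* (134 CPM) of myoblasts, and *Lyz2* (2800 CPM) and *C1qa* (613 CPM) of macrophages. In fibers, *Myh8* stood at 1415 CPM and *Atp2a1* at 4722 CPM. The summed levels overlapped between genotypes for every list given here, and none of these had its markers at 0. The part of these cells in the values of the members was not tested.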

How the data were processed

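Per the study's methods and the submitters' processing notes, the authors aligned stranded mRNA reads with STAR to GRCm38.p5 and counted them with featureCounts. They deposited raw counts per gene and mouse, without normalization. The strand setting and the rule for reads on more than 1 gene are not given in the sources used here. Genotypes were taken from the labels. The members and the gene lists were chosen with earlier results of these data known. Named beside the members were list genes with an unadjusted p under 0.05 and the 2 most abundant of each list reported. *Abcc9*, *Crem*, *Fhl2*, *Fhl3* and *Fhl4* were named in addition, after their values were seen.

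Of 25700 genes, 25664 were matched to GENCODE M21. Counts were scaled with TMM factors in edgeR 4.0.16 (R 4.3.3). After filterByExpr (minimum count 10, minimum total count 15), 14410 genes were compared between genotypes by edgeR's quasi-likelihood test, with p adjusted by Benjamini and Hochberg's method over all of them. Relations between mice used log2 CPM with a prior count of 2. Replicates are separate mice. The lowest chi-square per degree of freedom between libraries of one genotype was 9.47, so no library was a copy. On simulated counts with 200 genes changed by a log2 fold change of 1, edgeR recovered 91% with 4.21% false calls among 190. The alternatives were DESeq2's size factors, the Wald test of DESeq2 1.42.0, robust empirical Bayes, other filters, a replicate block, Spearman's rho and leaving out each mouse. Values without Pax7Cre mice 2 and 4 together were added after seeing the data. The result of 1 marker list is not reported here.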

Additional observations from a re-analysis of the deposited data

Results flagged for a closer look

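*Cspg4* in miR-501KO mouse 5, at 59.7 CPM, stood apart from the other miR-501KO mice, which lay between 45.0 and 47.9 CPM. The gap was 0.804 of the range, over the Dixon limit of 0.71 for 5 mice. The regenerating fiber score of miR-501KO mouse 4, at 8.61 (mean log2 CPM), stood apart from the other 4 miR-501KO mice, which lay between 8.89 and 8.92, with a gap of 0.895 of the range. In all, 30 groups of 5 mice were searched, and chance alone gives about 1 in 20, or 1.5 groups.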

How the results depend on the processing

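edgeR's test called 0 genes and 0 members at an adjusted p under 0.05 in every alternative run, and so did DESeq2's. Genes with an unadjusted p under 0.05 in miR-501KO mice, 55 higher and 96 lower, became 153 higher and 159 lower with no filter, 36 higher with at least 10 counts in every mouse, and 87 higher with the replicate block. Leaving out 1 mouse gave 39 to 267 higher and 59 to 242 lower genes, with 267 and 186 without Pax7Cre mouse 2, 228 and 242 without Pax7Cre mouse 4, and 59 lower without miR-501KO mouse 1. Members called without adjustment numbered 1, 0 with at least 10 counts in every mouse, which removes *Fhl5*, and 1 to 2 when a mouse was left out. The log2 fold change of *Fhl5* stayed between -0.71 and -0.53. *Myh11* turned to 0.028 with the replicate block. When a mouse was left out, the log2 fold change ran from -0.095 to 0.16 for *Myh11*, from -0.00997 to 0.0988 for *Pdgfrb*, from -0.065 to 0.11 for *Cspg4* and from -0.19 to 0.081 for *Kcnj8*, all of which change sign, and from 0.0016 to 0.20 for *Tagln*, from 0.039 to 0.18 for *Cnn1*, from 0.10 to 0.36 for *Acta2* and from -0.17 to -0.0031 for *Rgs5*, which do not. Relations to marker scores past the adjusted threshold numbered 0 to 5 when a mouse was left out. Mouse numbers were not used as pairs, since same-numbered mice had correlations of their deviations from -0.305 to 0.337, and the replicate block called 0 genes after adjustment.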
